A study of Mus musculus with 12 samples.

Results

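The 46 genes described here encode the machinery of DNA replication and mitosis. They were chosen by symbol for their known roles, with earlier results of these data already known. They fall into 17 genes of replication licensing and S phase, 6 G1 cyclins and E2F factors, and 23 genes of mitosis. All 46 were found among the 25540 symbols of the count table, and all 46 passed the filter on low counts that left 15720 genes for testing. They were measured by mRNA sequencing in livers of BALB/c mice injected with preparations called iExos, taken here as exosomes, the small vesicles that cells release and that the study's title names. The 4 groups of 3 libraries received iExos labelled siCntrl, siSTAT3, mASO Scrbl or mASO STAT3, and the title places the work in liver fibrosis with STAT3 as the target. By common usage si stands for small interfering RNA and ASO for antisense oligonucleotide; the m of mASO is not explained in the labels. siSTAT3 against siCntrl is called the siRNA arm below, and mASO STAT3 against mASO Scrbl the mASO arm. Neither an injury of the livers nor separate animals for the libraries of a group is stated in the labels, and p-values then measure only how far these libraries spread, which may be technical.

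Adult hepatocytes rest outside the cell cycle and can return to it after injury, and non-parenchymal cells of a fibrotic liver can divide as well. In G1, cyclins and their kinases inactivate the retinoblastoma proteins and free E2F factors, which switch on the genes of replication. Origins of replication are licensed when ORC, CDC6 and CDT1 load the MCM2-7 helicase, while the genes of mitosis are switched on later in the cycle, many through a promoter element called the CHR and the complexes that bind it.

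Library totals ran from 39844158 to 67791159 counts. Levels are given as CPM, which are counts scaled to a common library size, on totals adjusted by edgeR's TMM method, whose factors lay between 1.11 and 1.27 in the control libraries and between 0.804 and 0.901 in those labelled STAT3. One count was worth 0.0121 to 0.0307 CPM. CPM is not divided by gene length, so levels are compared between libraries and not between genes. Stat3 itself stood at 106, 121 and 111 CPM in siCntrl and at 91.5, 116 and 122 CPM in siSTAT3. It stood at 106, 90.0 and 101 CPM in mASO Scrbl and at 105, 88.2 and 115 CPM in mASO STAT3. The Stat3 ranges overlapped in both arms, so that gene gives no check of the labels, and every direction below rests on the labels alone.

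Replication genes were lower in the libraries labelled STAT3 than in their controls in both arms, while most genes of mitosis did not pass the test. In the siRNA arm 12 of the 17 licensing and S phase genes fell and 2 rose, and their median log2 fold change was −1.60, which is 3.04-fold lower. In the mASO arm 13 fell and 2 rose, with a median of −2.17, or 4.51-fold lower. Of the 23 mitosis genes 8 fell in the siRNA arm (median −1.29) and 7 in the mASO arm (median −1.24), and none rose. Called or not, 21 of these 23 had a log2 fold change below 0 in each arm. So did 14 and 15 of the 17 S phase genes, and 51.9% and 52.8% of all genes tested. Of the 6 G1 genes 3 fell in the siRNA arm (median −0.82) and 4 in the mASO arm (median −1.67). Calls are edgeR adjusted p-values under 0.05, with adjustment over all genes tested. Across all genes the same rule called 22.4% higher and 23.4% lower in the siRNA arm, and 21.3% higher and 22.5% lower in the mASO arm, with medians of −0.04 and −0.05. The S phase genes called lower were 70.6% and 76.5% of their class, well above these shares, whereas the 34.8% and 30.4% of the mitosis genes lay nearer to them. Most mitosis genes had fewer counts than most S phase genes, and few counts make the same change harder to call. The shares called therefore do not compare the sizes of change in the classes. With library totals in place of TMM, the median of all genes shifted to −0.53 and −0.63, 1655 genes were higher and 7266 lower in the siRNA arm and 1525 higher and 7939 lower in the mASO arm, and 13 and 14 mitosis genes were called lower. In tissue RNA, fewer dividing cells and less of these transcripts per cell cannot be told apart.

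**Figure D1:**
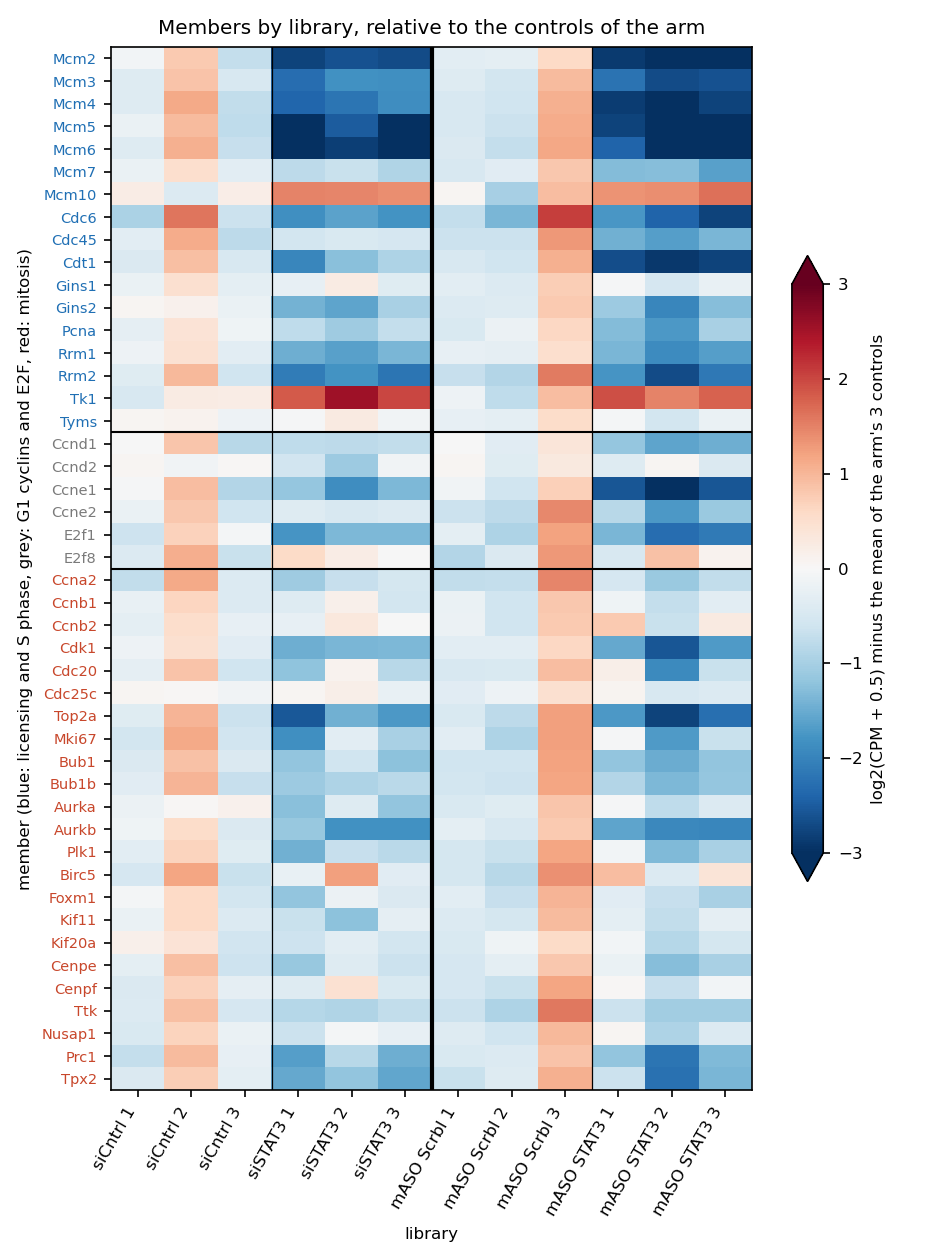
Level of each of the 46 genes (rows, coloured by role) in each of the 12 libraries (columns), as log2(CPM + 0.5) minus the mean of the 3 control libraries of the same arm. Blue is below and red above the controls. The rows of Mcm2 to Mcm7 are blue in all 6 STAT3 libraries, palest in Mcm7. Mcm10 and Tk1 are red there, and siCntrl 2 and mASO Scrbl 3 are the reddest control columns.

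Counting both arms, 21 of the 46 genes fell in each, 2 rose in each, 5 were called in 1 arm only and 18 in neither. Of all genes tested 16.9% fell in both arms and 17.4% rose in both, 20.9% were called in 1 arm only and 44.8% in neither, beside 45.7% and 4.35% of the 46 that fell and rose in both. The 21 were 12 S phase genes, 3 G1 genes and 6 mitosis genes. A log2 fold change below 0, called or not, was found for 40 of 46 genes in the siRNA arm and 42 of 46 in the mASO arm, which is 87.0% and 91.3% beside 51.9% and 52.8% of all genes tested.

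The controls were not uniform. Among the siCntrl libraries, siCntrl 2 had the highest level of 42 of the 46 genes, at a median of 2.60 times the mean of the other 2 (range 0.648 to 8.02). Among the scramble controls, mASO Scrbl 3 had the highest level of all 46, at a median of 3.32 times the mean of the other 2 (range 1.37 to 15.7). The ratio was larger for mitosis genes, with medians of 3.04 in siCntrl and 3.85 in mASO Scrbl, than for S phase genes, with medians of 2.22 and 2.59. The 14 stellate cell and myofibroblast markers also had their highest sums of the groups in these 2 libraries. These were 1789 CPM in siCntrl 2 against 1331 and 1536, and 2095 CPM in mASO Scrbl 3 against 1079 and 915. Of the 9 marker lists, only T and NK cell markers, with low sums, did likewise. Hepatocyte markers were lowest in siCntrl 2 (68339 CPM) but highest in mASO Scrbl 3 (98734 CPM). The part of cell types in the high levels of these controls was not tested. Results below are given with and without siCntrl 2 and mASO Scrbl 3 where that changes the count.

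The 6 subunits of the MCM2-7 ring, the helicase that unwinds DNA at the fork, fell in both arms. Their log2 fold changes ran from −3.97 to −0.86 in the siRNA arm and from −3.71 to −1.56 in the mASO arm, and the highest edgeR adjusted p was 0.0412 and 0.00262. Mcm2 stood at 21.6, 39.4 and 13.8 CPM in siCntrl and at 2.90, 3.29 and 3.13 CPM in siSTAT3. It stood at 31.7, 32.2 and 59.3 CPM in mASO Scrbl and at 4.97, 2.49 and 2.78 CPM in mASO STAT3. The lowest control was therefore above the highest STAT3 library in each arm, by a wide margin against the spread inside the STAT3 groups. The change of Mcm2 was −3.005 ± 0.41 (SE, log2) in the siRNA arm, with an edgeR adjusted p of 8.88e-05, and −3.60 ± 0.41 in the mASO arm, with an edgeR adjusted p of 2.48e-05. An exact two-sided permutation test of 3 libraries against 3 cannot go below p = 0.1, and Mcm2 reached that value in both arms.

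Mcm3 stood at 16.6, 39.8 and 15.4 CPM in siCntrl against 4.03, 5.79 and 5.71 in siSTAT3, and at 25.9, 23.0 and 66.3 CPM in mASO Scrbl against 6.99, 4.92 and 5.11 in mASO STAT3. Mcm4 stood at 12.4, 36.8 and 9.57 CPM against 2.77, 3.19 and 4.12 in the siRNA arm, and at 20.5, 18.7 and 60.7 CPM against 3.54, 3.19 and 3.72 in the mASO arm. Both genes were 4.64 to 9.55-fold lower, and neither overlapped between the groups of an arm. Mcm5 stood at 12.6, 28.3 and 8.36 CPM in siCntrl against 1.01, 2.16 and 0.983 in siSTAT3, and at 19.8, 17.7 and 60.9 CPM in mASO Scrbl against 3.62, 1.84 and 2.09 in mASO STAT3. Mcm6 stood at 13.0, 36.6 and 10.5 CPM against 0.986, 2.01 and 0.829 in the siRNA arm, and at 25.2, 20.4 and 76.7 CPM against 6.10, 1.24 and 2.56 in the mASO arm. These 2 subunits had the largest changes of the ring, 11.9 to 15.7-fold lower. Mcm7 changed least, from 20.1, 32.9 and 18.4 CPM to 13.0, 14.2 and 12.1 in the siRNA arm and from 22.7, 25.2 and 56.8 CPM to 12.6, 13.0 and 10.04 in the mASO arm, which is 1.81-fold and 2.94-fold lower. The Mcm7 call held in 8 of 15 settings in the siRNA arm and in all 15 in the mASO arm. In GENCODE M21 Mcm7 shares 7.25% of its exon bases with Ap4m1 and 1.45% with Cops6, both on the opposite strand. Cops6 stood at means of 101 and 149 CPM in the siRNA arm and 97.7 and 138 CPM in the mASO arm, control first. What reads of these genes add to the Mcm7 count was not tested.

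The promoters of the S phase genes that hold an exact E2F match are shown because E2F factors are the known regulators of this class. The 4 printed are those with the smallest siRNA arm p among S phase genes with such a match in the bases before the start. Each is the 180 bases before the RefSeq transcript start in GRCm38.p6, read 5′ to 3′ on the strand of the gene, with E2F matches in capitals. Mcm5 lies at chr8:75109329-75109508 on the plus strand, Mcm6 at chr1:128359706-128359885 on the minus strand, Cdc6 at chr11:98907971-98908150 on the plus strand and Mcm7 at chr5:138171884-138172063 on the minus strand.
Mcm5: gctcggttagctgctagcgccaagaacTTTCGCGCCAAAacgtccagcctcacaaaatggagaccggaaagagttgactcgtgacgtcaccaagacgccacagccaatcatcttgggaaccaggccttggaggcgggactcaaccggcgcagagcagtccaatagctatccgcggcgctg
Mcm6: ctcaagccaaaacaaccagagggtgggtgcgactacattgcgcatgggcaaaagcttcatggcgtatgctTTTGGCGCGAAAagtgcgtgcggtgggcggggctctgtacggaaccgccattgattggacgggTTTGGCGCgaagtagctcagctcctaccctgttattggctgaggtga
Cdc6: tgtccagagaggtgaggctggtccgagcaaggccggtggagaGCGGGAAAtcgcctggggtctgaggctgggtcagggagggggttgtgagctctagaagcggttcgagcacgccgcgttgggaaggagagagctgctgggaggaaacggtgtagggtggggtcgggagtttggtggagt
Mcm7: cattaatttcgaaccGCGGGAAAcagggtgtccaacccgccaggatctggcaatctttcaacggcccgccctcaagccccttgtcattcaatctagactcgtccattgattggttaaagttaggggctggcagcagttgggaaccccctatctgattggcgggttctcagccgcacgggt
The Mcm5 promoter holds 2 matches that overlap head to head, and the Mcm6 promoter holds such an overlapping pair and a further match nearer the start. Cdc6 and Mcm7 hold 1 each in the stretch shown.

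The loading factors and the other parts of the replicative helicase mostly fell with the ring. Cdt1, which brings MCM2-7 to origins, stood at 7.20, 18.9 and 6.87 CPM in siCntrl against 2.18, 3.83 and 4.91 in siSTAT3, and at 11.9, 10.9 and 35.3 CPM in mASO Scrbl against 2.22, 1.81 and 2.01 in mASO STAT3. Its log2 change was −1.60 ± 0.52 (edgeR adjusted p = 0.0251) and −3.27 ± 0.55 (edgeR adjusted p = 0.000567). Cdc6, the other loading factor, stood at 0.613, 6.03 and 0.891 CPM against 0.103, 0.206 and 0.123 in the siRNA arm, and at 2.10, 1.15 and 17.6 CPM against 0.763, 0.304 and 0.121 in the mASO arm. The Cdc6 groups did not overlap, but 1 library of each control group carried most of its level, and its SE was 1.37 and 1.24 around log2 changes of −4.12 and −4.16. The call of Cdc6 held in 8 of 15 settings in the siRNA arm and in 9 of 15 in the mASO arm. It was lost in both arms with the replicate block, with limma voom and without the count filter, and in each arm when its high control alone was left out (siCntrl 2, log2 −2.38, edgeR adjusted p = 0.151, and mASO Scrbl 3, log2 −2.06, edgeR adjusted p = 0.0986). With both of these controls left out the edgeR adjusted p was 0.0176 and 0.022.

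Cdc45, which joins MCM2-7 in the active helicase, stood at 1.59, 5.13 and 1.02 CPM in siCntrl and at 1.27, 1.39 and 1.35 CPM in siSTAT3, and these ranges overlapped (log2 −0.95 ± 0.64, edgeR adjusted p = 0.246). In the mASO arm it fell from 2.59, 2.58 and 11.4 CPM to 1.28, 1.03 and 1.37 CPM (log2 −2.17 ± 0.65, edgeR adjusted p = 0.016). The test of the difference between the arms did not call Cdc45. The GINS complex, the third part of that helicase, was split between its 2 listed subunits. Gins2 stood at 2.68, 2.81 and 2.15 CPM against 0.637, 0.514 and 1.04 in the siRNA arm, and at 2.65, 2.65 and 6.71 CPM against 1.45, 0.570 and 1.21 in the mASO arm, and was called lower in both. Gins1 stood at 3.96, 6.72 and 3.72 CPM against 3.82, 5.58 and 3.50, and at 4.70, 4.40 and 10.2 CPM against 5.78, 4.05 and 5.03. The Gins1 groups overlapped in both arms, with edgeR adjusted p of 0.73 and 0.386. In GENCODE M21, 17 of the 46 genes share exon bases with another gene, 3 of them over 20% of their own, and such levels are uncertain if counting ignored strand. The 3 are Gins2, with 67.3% shared with Gse1 on the opposite strand, Kif20a, with 29.3% shared with Cdc23, and Ccnd1, with 23.4% shared with LTO1. Gse1 stood at means of 6.44 ± 2.70 and 3.93 ± 1.40 CPM (SD) in the siRNA arm and 10.6 ± 3.01 and 4.54 ± 1.42 CPM in the mASO arm, control first, so its means were ordered as those of Gins2, and what Gse1 reads add to the Gins2 count was not tested.

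Mcm10, which acts at the fork after the ring is loaded, went the other way. It stood at 19.3, 12.4 and 19.0 CPM in siCntrl and at 47.8, 46.4 and 44.2 CPM in siSTAT3, and at 10.1, 4.65 and 18.9 CPM in mASO Scrbl and 25.4, 26.4 and 31.4 CPM in mASO STAT3. All STAT3 libraries were above all controls of their arm. The log2 change was 1.45 ± 0.37 (edgeR adjusted p = 0.00698) and 1.31 ± 0.37 (edgeR adjusted p = 0.0127). In the mASO arm the edgeR call of Mcm10 was lost with library totals in place of TMM (adjusted p = 0.086), without the count filter (adjusted p = 0.0509) and in a fit of that arm alone (adjusted p = 0.0763), with the sign unchanged. No gene shares exon bases with Mcm10 in GENCODE M21.

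Genes of DNA synthesis and its building blocks did not move as a block. Pcna, the sliding clamp of the polymerases, stood at 27.6, 44.4 and 30.5 CPM against 19.5, 15.8 and 20.3 in the siRNA arm, and at 37.1, 45.4 and 79.1 CPM against 20.4, 15.02 and 25.8 in the mASO arm. Rrm1, the large subunit of ribonucleotide reductase, stood at 24.2, 37.1 and 21.5 CPM against 9.35, 8.31 and 10.01, and at 29.8, 29.4 and 50.4 CPM against 13.4, 9.22 and 10.9. Its log2 change was −1.58 ± 0.25 (edgeR adjusted p = 0.000184) and −1.71 ± 0.25 (edgeR adjusted p = 9.72e-05), with no overlap between groups. Rrm2, the small subunit made mainly in S phase, stood at 4.32, 11.8 and 3.59 CPM against 0.945, 1.31 and 0.860, and at 5.43, 4.74 and 27.8 CPM against 2.31, 0.989 and 1.67, 6.29-fold and 7.67-fold lower. Both reductase subunits and Pcna were called lower in both arms.

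Tk1, the cytosolic thymidine kinase of the salvage pathway, rose. It stood at 11.5, 19.5 and 19.2 CPM in siCntrl and at 59.0, 96.7 and 66.4 CPM in siSTAT3. In the mASO arm it stood at 17.3, 11.0 and 36.7 CPM in mASO Scrbl and at 75.4, 54.8 and 67.2 CPM in mASO STAT3. The groups did not overlap, and the log2 change was 2.15 ± 0.39 (edgeR adjusted p = 0.00086) and 1.60 ± 0.38 (edgeR adjusted p = 0.00513). Tk1 shares 83 exon bases, 1.60% of its own, with Afmid on the opposite strand, and Afmid stood at means of 4.14 and 35.5 CPM in the siRNA arm and 4.65 and 39.1 CPM in the mASO arm, control first. What Afmid reads add to the Tk1 count was not tested. Tyms, which makes thymidylate from deoxyuridylate, did not pass the test, with 10.9, 11.2 and 9.38 CPM against 10.1, 12.7 and 9.61, and with 11.1, 10.7 and 19.6 CPM against 12.7, 8.82 and 11.4. Its log2 change was 0.04 ± 0.23 and −0.33 ± 0.23, with edgeR adjusted p of 0.891 and 0.265.

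**Figure D2:**
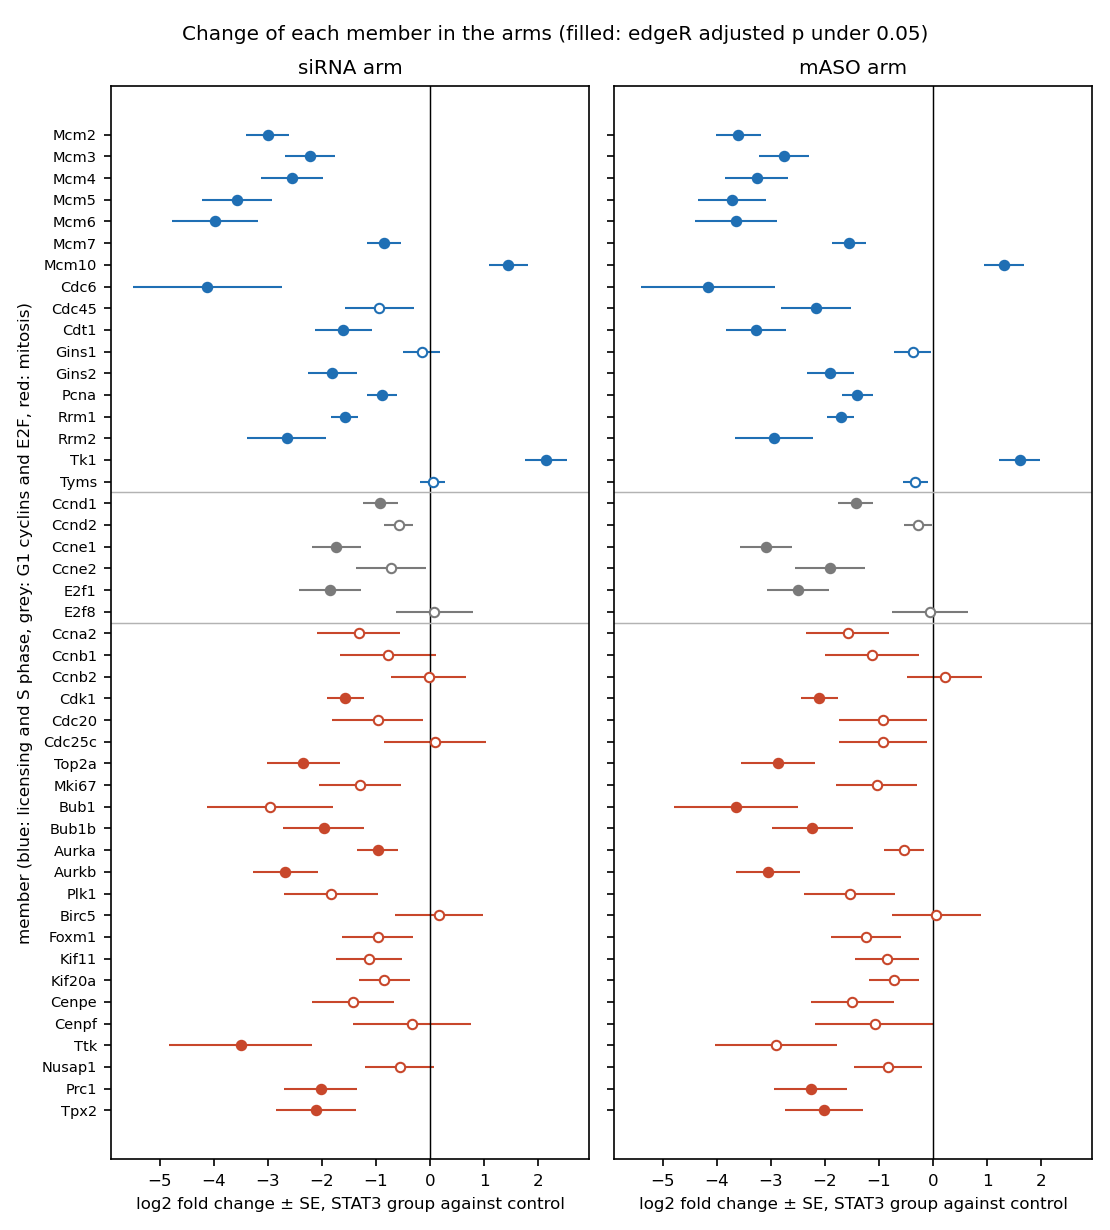
Log2 fold change of each gene (points, with bars of 1 SE) in the siRNA arm (left) and the mASO arm (right), filled where the edgeR adjusted p is under 0.05. In the S phase rows (blue) 14 and 15 of 17 points are filled, 2 of them to the right of 0, and in the mitosis rows (red) 8 and 7 of 23 are filled, all to the left of 0.

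Among the G1 genes, Ccnd1, Ccne1 and E2f1 were called lower in both arms. Ccne1, the cyclin that partners CDK2 at S phase entry, stood at 9.96, 19.8 and 5.39 CPM in siCntrl against 4.36, 2.47 and 3.75 in siSTAT3, and at 17.3, 12.2 and 30.8 CPM in mASO Scrbl against 2.76, 1.65 and 2.72 in mASO STAT3. Its log2 change was −1.73 ± 0.46 (edgeR adjusted p = 0.0089) and −3.08 ± 0.48 (edgeR adjusted p = 0.000288). Ccnd1, the cyclin that links growth signals to CDK4 and CDK6, stood at 54.6, 98.8 and 31.0 CPM against 32.4, 31.9 and 33.1 in the siRNA arm, where siCntrl 3 lay below all siSTAT3 libraries, and at 108, 84.8 and 138 CPM against 48.1, 35.6 and 39.1 in the mASO arm, where the groups were apart. Its call in the siRNA arm (log2 −0.92 ± 0.32, edgeR adjusted p = 0.0332) held in 6 of 15 settings. Among others it was lost with limma voom, with the replicate block and with siCntrl 2 and mASO Scrbl 3 both left out (log2 −0.41). E2f1, an activator of replication genes, stood at 3.23, 8.73 and 4.97 CPM against 1.19, 1.75 and 1.75, and at 5.43, 3.28 and 16.2 CPM against 2.29, 0.970 and 1.17, 3.62-fold and 5.66-fold lower. The E2f1 call held in 10 of 15 settings in the siRNA arm and in all 15 in the mASO arm.

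The remaining G1 genes were mixed. Ccne2 stood at 1.51, 3.50 and 1.02 CPM against 1.25, 1.16 and 1.23 in the siRNA arm, where it was not called, and at 1.99, 1.77 and 10.03 CPM against 1.70, 0.684 and 1.31 in the mASO arm, where it was called lower (log2 −1.91 ± 0.65, edgeR adjusted p = 0.0314) and lost the call without mASO Scrbl 3 and siCntrl 2 (log2 −0.62). Ccnd2 stood at 7.97, 7.08 and 7.77 CPM against 4.91, 3.29 and 7.06 in the siRNA arm, with no overlap but an edgeR adjusted p of 0.0844, and at 8.91, 6.55 and 10.6 CPM against 6.42, 8.88 and 6.18 in the mASO arm. E2f8, a repressor among the E2F factors, stood at 1.08, 3.96 and 0.819 CPM against 2.61, 1.95 and 1.60, and at 1.40, 2.06 and 8.08 CPM against 1.99, 5.89 and 3.20, and was not called in either arm. E2f8 shares 610 exon bases with Gm2788 on the opposite strand, which stood at means of 1.46 and 14.5 CPM in the siRNA arm and 0.755 and 20.9 CPM in the mASO arm, control first.

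In the mitosis class the genes with the smallest p were Cdk1, Aurkb and Top2a in both arms. Cdk1, the kinase that drives entry into mitosis, stood at 8.72, 13.8 and 7.60 CPM in siCntrl against 3.18, 3.47 and 3.50 in siSTAT3, and at 10.6, 10.6 and 20.9 CPM in mASO Scrbl against 4.26, 1.84 and 3.74 in mASO STAT3. Its log2 change was −1.57 ± 0.34 (edgeR adjusted p = 0.00225) and −2.10 ± 0.35 (edgeR adjusted p = 0.000298). Aurkb, the kinase of the chromosomal passenger complex, stood at 1.63, 2.89 and 1.22 CPM against 0.555, 0.154 and 0.154, and at 1.83, 1.55 and 4.47 CPM against 0.468, 0.247 and 0.242, 6.39-fold and 8.25-fold lower. Top2a, the topoisomerase that untangles sister chromatids, stood at 5.28, 14.6 and 4.32 CPM against 0.781, 2.24 and 1.78, and at 5.79, 4.53 and 19.6 CPM against 2.09, 0.760 and 1.29, 5.08-fold and 7.28-fold lower. None of these 3 genes overlapped between the groups of an arm.

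Promoters of the mitosis class are shown with their CHR and CCAAT matches in capitals, since these elements are the known signature of the class. The 4 are again those with the smallest siRNA arm p that hold a CHR match before the start, and Plk1 is the only 1 of them that was not called. Each is 180 bases before a RefSeq start in GRCm38.p6, for Prc1 the second listed start. Cdk1 lies at chr10:69352913-69353092 on the minus strand, Top2a at chr11:99024190-99024369 on the minus strand, Prc1 at chr7:80294296-80294475 on the plus strand and Plk1 at chr7:122159255-122159434 on the plus strand.
Cdk1: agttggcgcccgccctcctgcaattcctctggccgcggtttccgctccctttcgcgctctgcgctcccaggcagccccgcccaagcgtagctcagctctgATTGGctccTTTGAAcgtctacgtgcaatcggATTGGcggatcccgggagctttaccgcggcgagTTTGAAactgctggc
Top2a: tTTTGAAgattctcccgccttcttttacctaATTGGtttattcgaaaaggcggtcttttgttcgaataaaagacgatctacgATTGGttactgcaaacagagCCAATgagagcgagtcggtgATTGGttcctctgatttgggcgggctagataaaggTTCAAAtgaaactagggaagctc
Prc1: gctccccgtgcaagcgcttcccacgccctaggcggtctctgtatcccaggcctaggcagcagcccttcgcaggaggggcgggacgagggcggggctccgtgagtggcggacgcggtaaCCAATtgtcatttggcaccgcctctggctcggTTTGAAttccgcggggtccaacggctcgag
Plk1: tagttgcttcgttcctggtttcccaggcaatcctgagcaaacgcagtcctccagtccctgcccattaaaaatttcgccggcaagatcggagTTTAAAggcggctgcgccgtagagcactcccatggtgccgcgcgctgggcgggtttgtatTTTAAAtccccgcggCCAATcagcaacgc
In these stretches Cdk1 holds 2 CHR matches with CCAAT matches before each, Top2a holds a CHR match close to the start behind a row of CCAAT matches, and Prc1 and Plk1 hold a CHR match close to a CCAAT match. The Cdk1 stretch also holds an E2F match, left in lower case.

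Start windows were found in RefSeq for 34 of the 46 genes, 14 of the S phase, 3 of the G1 and 17 of the mitosis class, each 250 bases before to 50 after the start. The E2F motif (TTTCCCGC, TTTCGCGC, TTTGCCGC or TTTGGCGC, both strands) was found in 6 of 14 S phase genes, in 1 of 17 mitosis genes, in 0 of 3 G1 genes and in 2.61% of all 27025 genes with a window. The CHR (TTTGAA or TTTAAA, both strands) was found in 5 of 14 S phase genes, 15 of 17 mitosis genes, 2 of 3 G1 genes and 30.6% of all genes. The CCAAT box (CCAAT, both strands) was found in 10 of 14, 15 of 17, 1 of 3 and 41.1%. Matches of different motifs can overlap, as can E2F matches on opposite strands. The S phase genes with an E2F match were Mcm3, Mcm5, Mcm6, Mcm7, Cdc6 and Cdt1, which were all called lower in both arms. Mcm2, Pcna, Rrm1 and Rrm2 were called lower in both arms without one, and Cdc45 in the mASO arm. Mcm10 and Tk1, the genes that rose, held no E2F match in this window. A match is a description of these letters, and no factor's binding was measured.

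**Figure D3:**
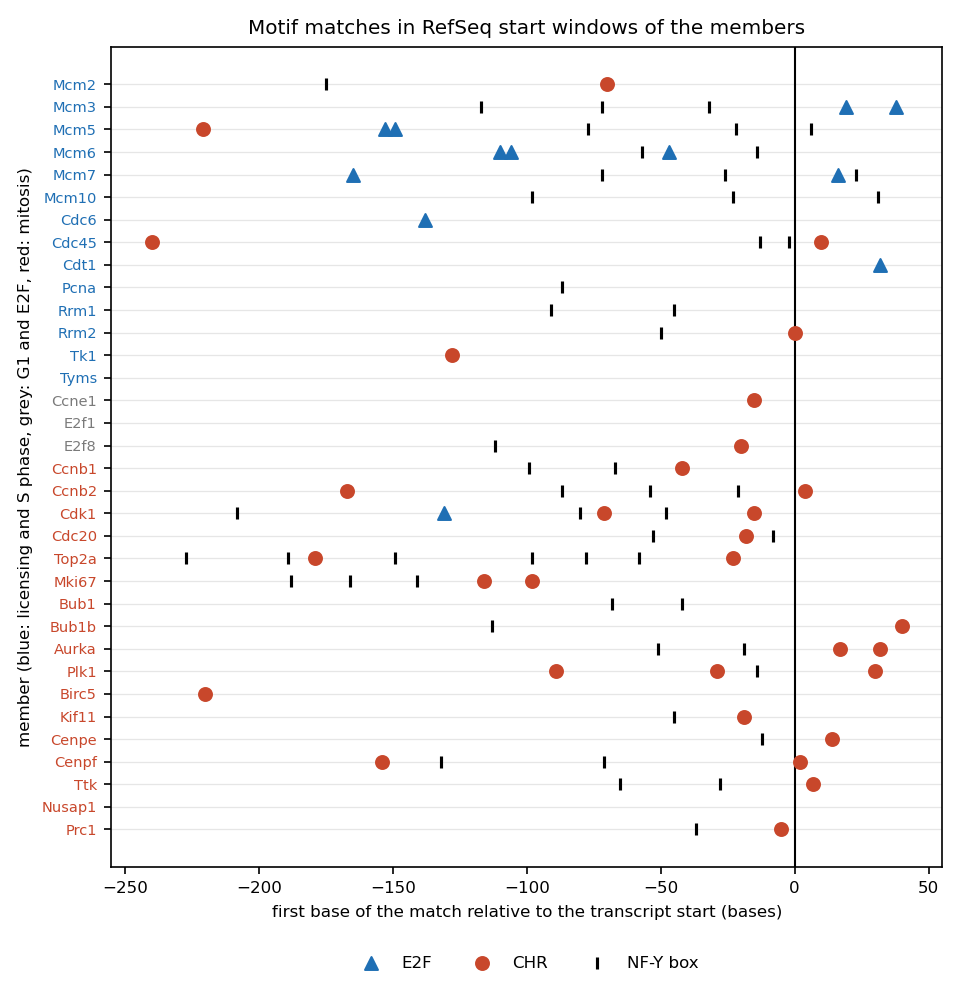
First base of each motif match relative to the RefSeq transcript start (x axis, in bases) in the 34 genes with a window (rows, coloured by role); triangles are E2F, circles CHR and ticks the CCAAT (NF-Y) box. Triangles lie in 6 S phase rows and in Cdk1, and circles lie in 15 of the 17 mitosis rows.

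The other mitosis genes called in both arms were Bub1b, a spindle checkpoint protein, Prc1, a cross-linker of the midzone, and Tpx2, an activator of Aurora A. Prc1 stood at 1.19, 4.78 and 1.82 CPM against 0.370, 1.05 and 0.491, and at 1.87, 1.97 and 5.44 CPM against 0.935, 0.209 and 0.805, 4.07-fold and 4.79-fold lower. Tpx2 stood at 1.72, 4.48 and 1.92 CPM against 0.534, 0.823 and 0.522 in the siRNA arm, and at 1.37, 1.78 and 5.78 CPM against 1.43, 0.133 and 0.664 in the mASO arm, where mASO STAT3 1 lay inside the range of the controls. Bub1b stood at 0.800, 2.80 and 0.517 CPM against 0.267, 0.360 and 0.430, and at 0.801, 0.739 and 3.84 CPM against 0.541, 0.247 and 0.362. In each of these genes 1 library of each control group held the highest value by more than 2 times the next.

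Called in 1 arm only were Aurka and Ttk in the siRNA arm and Bub1 in the mASO arm. Aurka, the centrosome kinase, stood at 6.77, 7.96 and 8.48 CPM against 2.94, 5.76 and 3.13 (edgeR adjusted p = 0.0473), and at 4.29, 4.65 and 11.3 CPM against 6.01, 3.38 and 4.49 (edgeR adjusted p = 0.253). Ttk, the kinase that starts the spindle checkpoint, stood at 0.240, 1.35 and 0.201 CPM against 0.0411, 0.0257 and 0.0922, and at 0.291, 0.145 and 3.18 CPM against 0.295, 0.0951 and 0.101, with edgeR adjusted p of 0.0451 and 0.0534. Bub1, a kinetochore kinase of the same checkpoint, stood at 0.373, 1.67 and 0.373 CPM against 0.0205, 0.283 and 0, and at 0.461, 0.460 and 2.90 CPM against 0.148, 0.0190 and 0.141, with edgeR adjusted p of 0.0527 and 0.0212. The adjusted p of Aurka, Ttk and Bub1 lies close to the threshold in at least 1 arm, and the difference between the arms was not called for any of the 3.

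The 14 mitosis genes called in neither arm included Mki67, the proliferation marker, the B cyclins and Plk1. Mki67 stood at 3.96, 14.0 and 3.89 CPM in siCntrl against 1.34, 4.76 and 2.86 in siSTAT3, and at 4.52, 2.81 and 14.2 CPM in mASO Scrbl against 5.61, 1.43 and 3.42 in mASO STAT3. Its groups overlapped in both arms, with log2 changes of −1.29 ± 0.76 and −1.05 ± 0.75. Ccna2, the cyclin of S and G2, stood at 1.01, 5.04 and 1.38 CPM against 0.698, 1.05 and 1.23, and at 0.886, 0.908 and 5.97 CPM against 1.13, 0.570 and 0.906. Plk1, a kinase of mitotic entry and exit, stood at 0.813, 2.10 and 0.776 CPM against 0.103, 0.514 and 0.430, with no overlap but an edgeR adjusted p of 0.104, and at 0.631, 0.521 and 3.18 CPM against 1.03, 0.152 and 0.322. Birc5, the survivin gene, stood at 1.73, 6.75 and 1.49 CPM against 2.22, 6.92 and 1.997, and at 1.41, 1.05 and 6.62 CPM against 4.77, 1.60 and 3.14, which gave log2 changes of 0.16 ± 0.81 and 0.06 ± 0.81.

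Ccnb1, Ccnb2, Cdc20, Cdc25c, Foxm1, Kif11, Kif20a, Cenpe, Cenpf and Nusap1 were the other genes not called. Ccnb2 had log2 changes of −0.03 ± 0.69 and 0.21 ± 0.69, and Cenpf, a kinetochore protein, of −0.33 ± 1.09 and −1.08 ± 1.10. Foxm1, the factor that helps switch on many mitosis genes, had changes of −0.96 ± 0.66 and −1.24 ± 0.65. For Ccnb2 and Cenpf the SE exceeded the change itself in both arms. Cdc25c had the lowest summed count of the 46 genes, 131 over all libraries, with a count of 0 in siSTAT3 3, and the lowest sum in a single group was that of Ttk, 6 counts in siSTAT3.

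The classes were next compared within each library, as a description with no test. For each library the mean over a class of log2(CPM + 0.5) relative to the controls of the arm was taken, and the S phase mean was subtracted from the mitosis mean. In the 6 control libraries this gap lay between −0.05 and 0.06, also in siCntrl 2 (0.06) and mASO Scrbl 3 (0.02), where both classes were high. It was 0.27, 0.55 and 0.36 in siSTAT3 and 0.94, 0.58 and 0.81 in mASO STAT3. On this scale every library labelled STAT3 thus had S phase genes further below the controls than mitosis genes. On this scale the class means of the control libraries ran from −0.58 to 0.99 for S phase and from −0.55 to 1.01 for mitosis, whereas the ratios of the high control to the others, which carry no offset, were larger for mitosis. The offset of 0.5 CPM shrinks the changes of genes with low counts, so this measure alone does not compare the sizes of change.

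**Figure D4:**
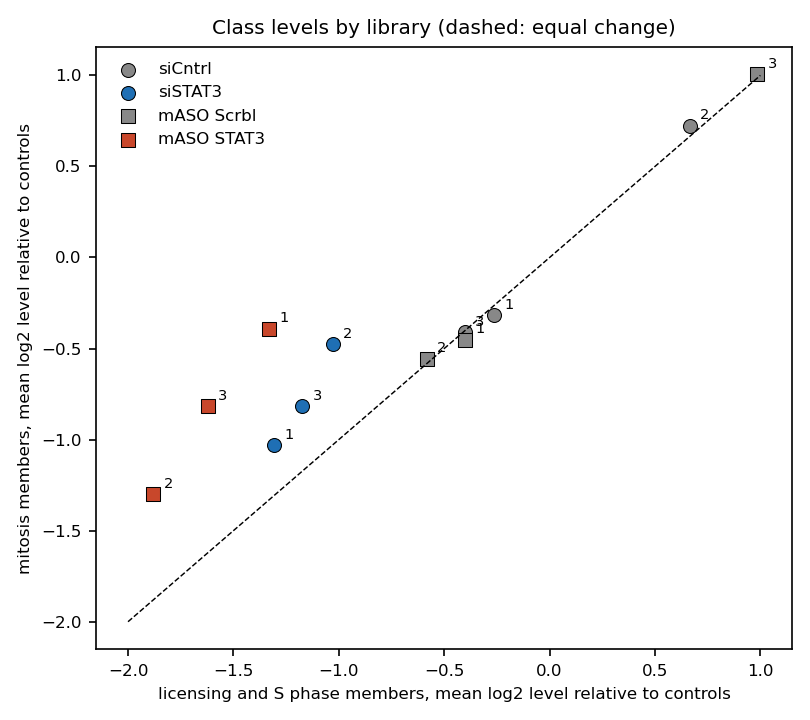
Mean log2(CPM + 0.5) relative to the arm's controls of the 17 S phase genes (x axis) and of the 23 mitosis genes (y axis), 1 point per library with its replicate number; the dashed line marks equal change. The 6 control libraries lie along the line and the 6 STAT3 libraries above it, by 0.27 to 0.94.

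The fitted log2 changes carry no such offset, and their class medians had the same order with all libraries in. The mitosis median minus the S phase median was 0.31 in the siRNA arm and 0.93 in the mASO arm. Without siSTAT3 2 the siRNA value was −0.027, so that in the siRNA arm the order of the medians rests on that library. With siCntrl 2 and mASO Scrbl 3 both left out the values were 0.79 and 1.19. These 2 libraries were higher in mitosis than in S phase genes, so leaving them out by itself widens this difference.

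Leaving out these 2 control libraries left the S phase counts as they were and lowered those of mitosis. The S phase class kept 12 genes lower and 2 higher in the siRNA arm and 13 lower and 2 higher in the mASO arm, with medians of −1.32 and −1.41. The mitosis class kept 4 of its 8 lower calls in the siRNA arm, Cdk1, Top2a, Aurka and Aurkb, and 4 of its 7 in the mASO arm, Cdk1, Top2a, Aurkb and Prc1, with medians of −0.53 and −0.23. The G1 class kept 2 of 3 and 3 of 4. All genes tested in that fit gave 18.2% higher and 19.3% lower in the siRNA arm and 18.9% higher and 19.5% lower in the mASO arm. The 17.4% of the mitosis genes still lower in each arm is thus slightly under the background share. These 2 control libraries were chosen after seeing the data, and they were high in mitosis genes by more than in S phase genes. A loss of mitosis calls was therefore built in, and the share cannot decide whether mitosis genes changed. Called or not, 17 and 16 of the 23 mitosis genes had a log2 fold change below 0 in that fit. With siCntrl 2 alone left out, the shared spread still includes mASO Scrbl 3, and the siRNA arm kept 7 S phase genes, 1 G1 gene and 2 mitosis genes lower. With mASO Scrbl 3 alone left out the mASO arm kept 11, 3 and 3.

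**Figure D5:**
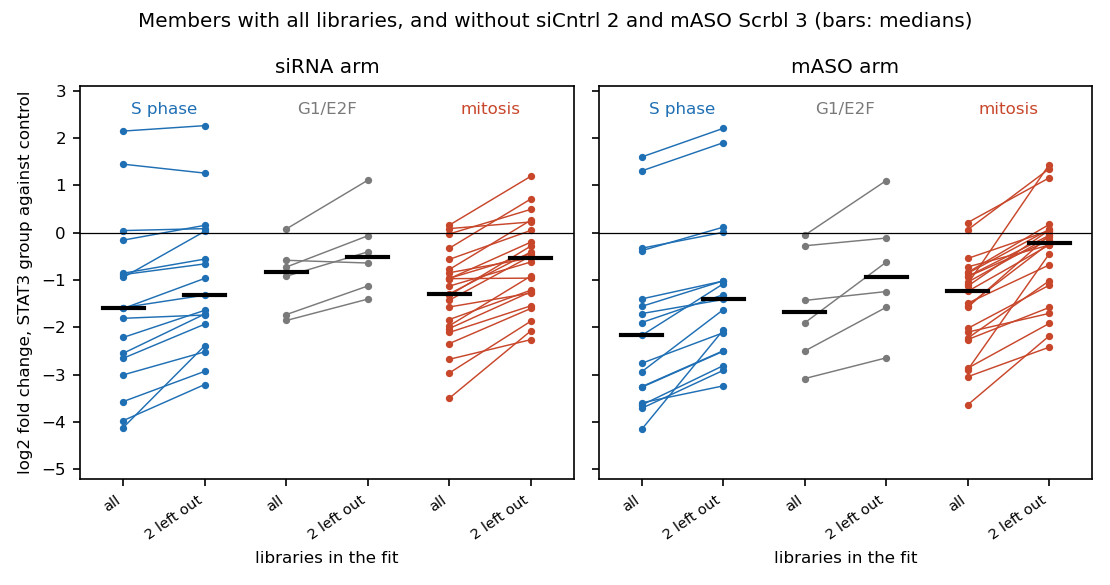
Log2 fold change of each gene in the siRNA arm (left) and the mASO arm (right), fitted with all 12 libraries and with siCntrl 2 and mASO Scrbl 3 left out, by class; lines join a gene's 2 values and bars are medians. The mitosis medians move from −1.29 to −0.53 and from −1.24 to −0.23, and the S phase medians from −1.60 to −1.32 and from −2.17 to −1.41.

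Some calls held in each of the 15 settings tried in an arm. In the siRNA arm these were Mcm2, Mcm3, Mcm4, Mcm5, Mcm6, Mcm10, Gins2, Rrm1 and Tk1 of the S phase class, and Cdk1 and Aurkb of mitosis. In the mASO arm they were Mcm2 to Mcm7, Cdt1, Gins2, Pcna, Rrm1, Rrm2 and Tk1, the G1 genes Ccnd1, Ccne1 and E2f1, and Cdk1, Top2a and Aurkb.

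No gene of the 46 was called in the difference between the arms, between the controls, or between the STAT3 groups, where edgeR called 1 gene (0.00636%), 2 genes (0.0127%) and 0 genes (0%) of all tested. The smallest edgeR adjusted p of the 46 was 0.674, 0.583 and 0.875, and DESeq2 and limma voom also called none of them. At an unadjusted p under 0.05 there were 1, 3 and 0 of the 46, beside 1161, 1234 and 919 of all genes. The 1 was Cdt1, which fell further in the mASO arm by 1.66 ± 0.73 on the log2 scale (95% interval −3.26 to −0.07). The 3 were Ccnd1, Pcna and Cdc25c, with log2 differences of 0.84, 0.66 and 1.92 between mASO Scrbl and siCntrl. These intervals are wide, so equal change in the arms was not shown.

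Other genes of the same machinery were counted in 11 lists that hold none of the 46. Of 18 genes of origin recognition and firing 12 fell and 1 rose in the siRNA arm, and 14 fell in the mASO arm. They include Dbf4, the activator of the CDC7 kinase, at log2 −1.59 ± 0.24 and −1.84 ± 0.24, and Topbp1, which helps to fire origins, at −1.43 ± 0.25 and −1.93 ± 0.25. Gins4, another GINS subunit, rose in the siRNA arm (0.54 ± 0.17) and was not called in the mASO arm (0.20 ± 0.17). Of 23 genes of the replication machinery 10 fell and 1 rose in the siRNA arm, and 18 fell and 1 rose in the mASO arm. Pole2, a subunit of the leading-strand polymerase, changed by −2.58 ± 0.32 and −3.52 ± 0.33, and the primase subunit Prim1 by −1.47 ± 0.26 and −2.09 ± 0.26. Pold2, of polymerase delta, rose in both arms (0.80 ± 0.13 and 0.63 ± 0.13).

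Of 8 genes of deoxynucleotide supply 2 rose and 2 fell in the siRNA arm, and 2 rose and 3 fell in the mASO arm. The siRNA shares, 25% each way, were near those of all genes tested. Those that rose in both were Dctpp1, a nucleotide pool cleaner (1.97 ± 0.19 and 1.78 ± 0.19), and Shmt1, a source of one-carbon units for thymidylate (1.50 ± 0.16 and 1.78 ± 0.16). Dck, the deoxycytidine kinase, fell (−1.36 ± 0.27 and −2.05 ± 0.27). Of 14 genes of S phase repair and chromatin copying 9 and 10 fell and none rose, among them the maintenance methyltransferase Dnmt1 (−1.16 ± 0.23 and −1.96 ± 0.24) and Hells (−3.29 ± 0.71 and −4.41 ± 0.71).

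Of 10 CDK inhibitors and RB family genes 3 rose and 3 fell in each arm, shares near those of all genes tested (22.4% higher and 23.4% lower in the siRNA arm, 21.3% and 22.5% in the mASO arm). Cdkn1a, which encodes the inhibitor p21, had the largest change of the 11 lists in the siRNA arm, −5.47 ± 0.45, and −3.91 ± 0.41 in the mASO arm. Rbl1, the p107 gene and itself an E2F target, fell (−2.05 ± 0.25 and −2.39 ± 0.25), while Rbl2, the p130 gene that acts in resting cells, rose (1.14 ± 0.21 and 1.03 ± 0.21). Cdkn1c (1.19 ± 0.31 and 2.15 ± 0.32) and Cdkn2c (1.06 ± 0.19 and 0.83 ± 0.19) rose as well. Of 15 other E2F, DP, MYB and MuvB genes 3 fell and 2 rose in the siRNA arm and 5 fell and 1 rose in the mASO arm, with E2f2 lower in both (−1.10 ± 0.21 and −1.04 ± 0.20). In the siRNA arm that is 20% lower and 13.3% higher, both under the shares of all genes. Of 15 other kinases, cyclins and phosphatases 8 fell and 2 rose, and 10 fell and none rose, with Cdc25a lower in both (−1.05 ± 0.16 and −1.36 ± 0.16).

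Lists of mitosis outside the 46 held more calls in the mASO arm than in the siRNA arm, a difference that was not tested. Of 28 genes of the spindle, motors and cytokinesis 10 and 16 fell and none rose. Of 23 kinetochore and checkpoint genes 7 fell and 3 rose in the siRNA arm, and 12 fell and 2 rose in the mASO arm. The 30.4% lower in the siRNA arm is not far from the 23.4% of all genes, unlike the 52.2% in the mASO arm. Spc24, of the NDC80 complex, rose in both (2.49 ± 0.44 and 2.26 ± 0.43), as did Cenpm (1.74 ± 0.66 and 2.17 ± 0.66). Of 17 condensin, cohesin and separase genes 6 fell and 1 rose, and 9 fell and none rose, with the condensin subunits Ncaph (−2.85 ± 0.41 and −3.36 ± 0.41) and Smc2 (−2.13 ± 0.39 and −2.48 ± 0.38) lower in both. Of 15 genes of the anaphase-promoting complex, which also works outside mitosis, 2 fell and 3 rose, and 5 fell and 3 rose. The siRNA shares, 13.3% lower and 20% higher, lay under those of all genes.

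Marker sums of some liver cell types differed between the groups as well. Summed over 13 of 14 listed hepatocyte markers found in the table, levels were 68339 to 108389 CPM in siCntrl against 152832 to 164876 in siSTAT3, and 68764 to 98734 CPM in mASO Scrbl against 133395 to 178180 in mASO STAT3. The 14 stellate cell and myofibroblast markers summed to 1331 to 1789 CPM against 276 to 335, and to 915 to 2095 CPM against 315 to 399. The 11 cholangiocyte and progenitor markers summed to 4741 to 6151 CPM against 580 to 865, and to 7538 to 9095 CPM against 682 to 788. The 14 monocyte and macrophage markers summed to 553 to 1085 CPM against 416 to 528, and to 575 to 771 CPM against 446 to 519. The 12 neutrophil markers summed to 54.7 to 107 CPM against 17.7 to 66.9, and to 37.3 to 97.0 CPM against 22.4 to 24.6. The sums of the first 4 of these lists did not overlap between the groups of either arm. A sum follows its most abundant markers, and single markers differed. In the siRNA and mASO arms 6 and 8 of 13 hepatocyte markers rose and none fell. Of 14 stellate markers 11 and 8 fell and 1 and 3 rose. Of 10 cholangiocyte markers tested 7 fell in each arm and none rose. Of 14 monocyte markers 8 and 4 fell and 1 and 2 rose, the 4 (28.6%) near the share of all genes. Of all genes tested 23.4% and 22.5% fell and 22.4% and 21.3% rose. The 12 endothelial, 12 B and plasma cell, 14 erythroid precursor and 14 T and NK cell markers overlapped between groups in at least 1 arm, and T and NK cell sums were low, at 3.06 to 10.2 CPM over all libraries. No listed marker had a count of 0 over a whole group. The part of these cell types in the levels of the 46 genes was not tested.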

How the data were processed

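mRNA of mouse liver was sequenced in 12 libraries after TRIzol extraction with a stranded Illumina kit, per the labels' protocols. The authors deposited a table of raw, whole-number counts per gene. The submitters' processing notes name TopHat and Cufflinks with neither a version nor a role. The build, annotation, counting tool and strand setting were not given in the sources used here. A second table, normalized by the authors, was not used.

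All 12 libraries, 39844158 to 67791159 counts deep, were fitted together by group in edgeR 4.0.16 under R 4.3.3, after TMM scaling and filterByExpr (count 10, total 15). The filter left 15720 genes and dropped 9820. Calls are Benjamini-Hochberg adjusted p under 0.05 from the robust quasi-likelihood F test (8 residual degrees of freedom, biological CV 0.247), and an SE is the absolute log2 change over the root of F. Changes by library use log2(CPM + 0.5). Alternatives were DESeq2 (version 1.42.0), limma voom (version 3.58.1), other scalings and filters, a replicate block, a fit of the compared libraries alone and leaving out libraries. The joint leave-out of siCntrl 2 and mASO Scrbl 3 was chosen after seeing the data. The procedure was run on simulated counts with a small set of genes changed, up and down, in siSTAT3 alone. Far more genes were called in these data, so that run does not test the TMM scaling. Pairs of libraries in a group differed by far more than sampling noise.

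The 46 genes, the 11 lists of other cell cycle genes (186 genes) and the 9 marker lists (119 genes) were chosen with earlier results of these data known. Genes given library by library are, in each class, the 3 with the smallest p in each arm, genes not called where most of their class was, and genes called in the other direction. The other genes given library by library were chosen after their values were seen. From each list the 3 genes with the smallest p over both arms and those called opposite to most of the list could be named, and the examples printed were picked from these. Sample sheet numbers in the labels repeat between the arms and not within one, and no batch is named. Exon overlaps are from GENCODE M21 and start windows from RefSeq on GRCm38.p6, matched by symbol.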

Additional observations from a re-analysis of the deposited data

How the results depend on the processing

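In the 15 settings tried per arm no called gene changed sign. In the siRNA arm 9 of 14 S phase calls, 0 of 3 G1 calls and 2 of 8 mitosis calls held in every setting, and in the mASO arm 12 of 15, 3 of 4 and 3 of 7. Leaving out 1 library moved the siRNA counts to 10 to 23 genes lower in all, 7 to 12 S phase, 0 to 3 G1 and 2 to 8 mitosis, with the fewest S phase calls without siCntrl 2. S phase calls lost without it were Mcm7, Cdc6, Cdt1, Pcna and Rrm2. In the mASO arm it moved mitosis to 3 to 8, with 3 without mASO Scrbl 3 or mASO STAT3 2. The mASO medians ran from −2.51 to −1.41 for S phase, −1.94 to −0.93 for G1 and −1.82 to −0.22 for mitosis, and the siRNA mitosis median from −1.64 to −0.53. The mitosis minus S phase gap ran from −0.027 (without siSTAT3 2) to 0.78 in the siRNA arm and from 0.39 to 1.19 in the mASO arm. Over all genes, leave-one-out fits called 0 to 8 in the difference of the arms, 0 to 13 between the controls and 0 to 5 between the STAT3 groups.

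With siCntrl 2 and mASO Scrbl 3 both left out mitosis had 4 lower in each arm, medians of −0.53 and −0.23 and gaps of 0.79 and 1.19. The mASO medians were −1.41 for S phase and −0.93 for G1, and the controls had 0 genes called. With library totals all genes were 1655 higher and 7266 lower (siRNA) and 1525 higher and 7939 lower (mASO), mitosis had 13 and 14 lower, the mASO arm had 1 gene higher (S phase), the S phase medians were −2.14 and −2.76, the G1 medians −1.36 and −2.26, and the controls had 5 genes called. DESeq2 called 62 genes in the difference of the arms and 79 each in the controls and the STAT3 groups. By limma voom the siRNA arm had 13 genes lower, 1 of them G1 and 4 mitosis, and the difference of the arms had 2. Without a filter the siRNA arm had 14 lower, 1 of them G1 and 4 mitosis, the mASO arm had 1 higher (S phase), and the difference, controls and STAT3 groups had 3, 7 and 6 genes called. With at least 1 CPM in 3 libraries the gaps were 0.47 and 1.13, with fewer mitosis genes tested, and the difference had 2. In the mASO libraries alone 1 gene was higher (S phase). The cause of these shifts was not tested.

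Same-numbered libraries of an arm had residual correlations between −0.15 and 0.27, and pairing by number was therefore not assumed. With the replicate block mitosis had 4 lower in the siRNA arm and the difference of the arms had 0 genes called.

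Of genes not called, 10 changed sign in a setting in each arm (log2 values). Leave-one-out ranges in the siRNA arm were Cdc45 −1.33 to 0.033, Gins1 −0.39 to 0.16, Tyms −0.085 to 0.12, E2f8 −0.29 to 1.11, Ccnb1 −1.64 to 0.27, Ccnb2 −0.28 to 0.50, Cdc25c −0.52 to 0.59, Birc5 −0.65 to 1.197, Cenpf −1.28 to 0.72 and Nusap1 −0.85 to 0.054. Leave-one-out ranges in the mASO arm were Gins1 −0.60 to 0.12, Tyms −0.48 to 0.011, E2f8 −0.56 to 1.10, Ccnb1 −1.58 to 0.062, Ccnb2 −0.43 to 1.17, Aurka −0.79 to 0.045, Birc5 −0.36 to 1.36, Kif11 −1.19 to 0.073, Cenpf −1.62 to 1.45 and Nusap1 −1.31 to 0.18. With both controls left out, Cdc45 was 0.029, Gins1 0.16, Ccnb1 0.26, Ccnb2 0.49, Cenpf 0.71 and Nusap1 0.047 in the siRNA arm, while Gins1 was 0.12, Tyms 0.0073, E2f8 1.10, Ccnb1 0.053, Aurka 0.042, Kif11 0.068, Cenpf 1.44 and Nusap1 0.17 in the mASO arm. With library totals, Tyms was −0.46, E2f8 −0.47, Cdc25c −0.40 and Birc5 −0.40 in the siRNA arm, while Ccnb2 was −0.39 and Birc5 −0.54 in the mASO arm. By limma voom, Ccnb2 was 0.051 and Cdc25c −0.28 in the siRNA arm, while E2f8 was 0.28 in the mASO arm. 

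Depth limits genes with few counts, such as Ttk with a sum of 6 in siSTAT3 and Cdc25c with 131 over all libraries, where 1 count is 0.0121 to 0.0307 CPM.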
